A study of Mus musculus with 6 samples.

Results

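The p53 pathway genes described here are a list of 35 named regulators and targets of the tumour suppressor p53, with the BCL2 family left out. The gene symbols were matched to Ensembl identifiers in the count tables, and all 35 of the 35 were found among 52636 genes. RNA was sequenced from the mouse embryonic stem cell line E14 after 4 days with retinoic acid, the active form of vitamin A, which pushes such cells towards neural fates. The dose is 5 µM, a unit that the labels write as µm. The stem cells of both groups had been grown with serum, LIF, the MEK inhibitor PD0325901 and the GSK inhibitor CHIR99021, and LIF and both inhibitors were withdrawn for differentiation. The 3 wild-type libraries carry no further genotype in the labels. The 3 knockout libraries lack an enhancer cluster that the series title ties to HoxB activation and to formation of neural progenitor cells. Neither the deleted interval nor the count of clones is stated in the sources used here, so no targeted gene could be read as a check of the labels, and a property of 1 clone cannot be told apart from the deletion. The series' design text calls the libraries biological replicates.

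The p53 protein is a transcription factor that is kept low by MDM2, a ubiquitin ligase, and by its relative MDM4, which binds p53 and blocks its activation domain. DNA damage and other stresses free p53 from this hold, and it then turns on genes that halt the cell cycle, repair DNA or kill the cell. MDM2 is itself such a target, which closes a feedback loop. Embryonic stem cells hold much p53 protein and are prone to die or differentiate on damage. RNA levels do not report the amount or activity of p53 protein, which is set largely after transcription.

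The promoters of 5 members are shown because p53 acts through its binding site in DNA. These 5 genes, p53 itself and 4 classical targets, were picked from members that held a match and were lower in the knockout. That a match and a fall occur together in them follows from this choice, and a link between the 2 was not tested. Each window runs from 250 bases before to 50 bases from the start on of a RefSeq transcript (GRCm38.p6), 5′ to 3′ on the gene's own strand. Capitals mark exact matches to the p53 half-site, a motif of 10 bases (purines, C, bases that are A or T, G, pyrimidines) that reads alike on both strands, and, for Ccng1, a neighbouring half-site with 1 mismatch.
Trp53, chr11:69580109-69580408, plus strand: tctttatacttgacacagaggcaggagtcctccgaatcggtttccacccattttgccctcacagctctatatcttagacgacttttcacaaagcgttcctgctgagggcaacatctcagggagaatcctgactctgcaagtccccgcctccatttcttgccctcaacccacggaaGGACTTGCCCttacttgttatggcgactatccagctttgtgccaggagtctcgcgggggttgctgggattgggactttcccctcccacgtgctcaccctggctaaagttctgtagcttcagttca
Mdm2, chr10:117710709-117711008, minus strand: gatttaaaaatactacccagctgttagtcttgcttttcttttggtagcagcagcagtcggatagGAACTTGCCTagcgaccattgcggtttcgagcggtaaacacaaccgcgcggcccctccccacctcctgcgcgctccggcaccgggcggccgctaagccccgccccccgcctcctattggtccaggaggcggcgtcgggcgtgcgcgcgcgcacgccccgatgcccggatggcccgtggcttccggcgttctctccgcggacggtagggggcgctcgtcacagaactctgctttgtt
Cdkn1a, chr17:29090729-29091028, plus strand: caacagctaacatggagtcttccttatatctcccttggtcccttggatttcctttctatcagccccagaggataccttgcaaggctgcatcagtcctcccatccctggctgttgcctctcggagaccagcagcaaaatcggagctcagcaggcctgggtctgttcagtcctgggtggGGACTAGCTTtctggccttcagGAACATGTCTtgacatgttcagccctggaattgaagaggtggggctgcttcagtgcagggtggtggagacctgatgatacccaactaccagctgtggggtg
Ccng1, chr11:40755237-40755536, minus strand: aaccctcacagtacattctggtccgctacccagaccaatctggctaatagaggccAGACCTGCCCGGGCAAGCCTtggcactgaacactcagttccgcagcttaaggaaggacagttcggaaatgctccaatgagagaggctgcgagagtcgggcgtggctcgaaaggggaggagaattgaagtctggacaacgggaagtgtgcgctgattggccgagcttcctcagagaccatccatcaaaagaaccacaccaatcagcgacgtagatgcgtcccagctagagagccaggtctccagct
Aen, chr7:78895808-78896107, plus strand: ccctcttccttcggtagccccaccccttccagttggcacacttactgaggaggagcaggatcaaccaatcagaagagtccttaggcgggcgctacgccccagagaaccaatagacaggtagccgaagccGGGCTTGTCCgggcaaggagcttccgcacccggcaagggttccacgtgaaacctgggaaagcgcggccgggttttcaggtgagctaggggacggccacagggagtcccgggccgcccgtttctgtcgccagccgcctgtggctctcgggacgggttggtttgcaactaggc
The half-site began 75 bases before the start in Trp53, 186 in Mdm2 and 121 in the Aen window shown. From another RefSeq start of Aen, the same half-site begins 10 bases after the start. In Cdkn1a the exact half-sites began 73 and 51 bases before the start, separated by 12 bases. The 10 bases directly after the second of them, left in lower case, match the half-site with 1 mismatch. That half-site could thus also be paired with no base between. In Ccng1 the paired half-sites began 195 and 185 bases before the start with no base between them. Of 28 members with a promoter window in RefSeq, 9 (32.1%) held an exact half-site in at least 1 window, against 2582 of 27025 genes (9.55%). The other 4 were Ei24, Gadd45a, Ppm1d and Polk. Of these, Ei24 and Gadd45a also fell, Polk rose (log2 fold change 0.57) and Ppm1d did not pass the test. A pair of half-sites at most 13 bases apart with at most 2 mismatches was found in 4 members (14.3%), Ccng1, Cdkn1a, Gadd45a and Trp73, against 4.71% of all genes. The members were listed as p53 regulators and targets, so an excess of matches over all genes could be foreseen. It is not a result on the knockout, and the 27025 genes were not limited to those tested here. These are matches of letters, many p53 sites lie outside such windows, and binding was not measured.

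Of the 35 genes, 34 had enough counts to be tested, 10 rose in the knockout, 18 fell and 6 did not pass the test (edgeR quasi-likelihood, Benjamini-Hochberg adjusted p under 0.05 over 15816 genes). The share that changed was 82.4%, against 68.6% of all tested genes, so change in itself was common here. Of the 34, 28 had a mean wild-type level of at least 20 CPM, and the genes compared were not matched for level. The share that fell was 52.9%, against 34.0% of all tested genes, and the share that rose was 29.4%, against 34.5%. Levels are given as CPM, counts scaled to library size after TMM normalisation, so total RNA per cell is not measured. The median log2 fold change, knockout over wild type, was -0.29 over the 34 genes and 0.0091 over all tested genes. In size, the median absolute log2 fold change was 0.56, against 0.49 over all tested genes. The knockout libraries did not overlap the wild-type libraries in 28 of the 34, against 70.9% of all tested genes. By role, most regulators, growth arrest genes and cell death genes fell, while DNA repair genes that changed all rose and autophagy genes went both ways. Of 6 regulators tested, 4 fell (66.7%, against 34.0% of all tested genes) and 1 rose (16.7%, against 34.5%).

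**Figure D1:**
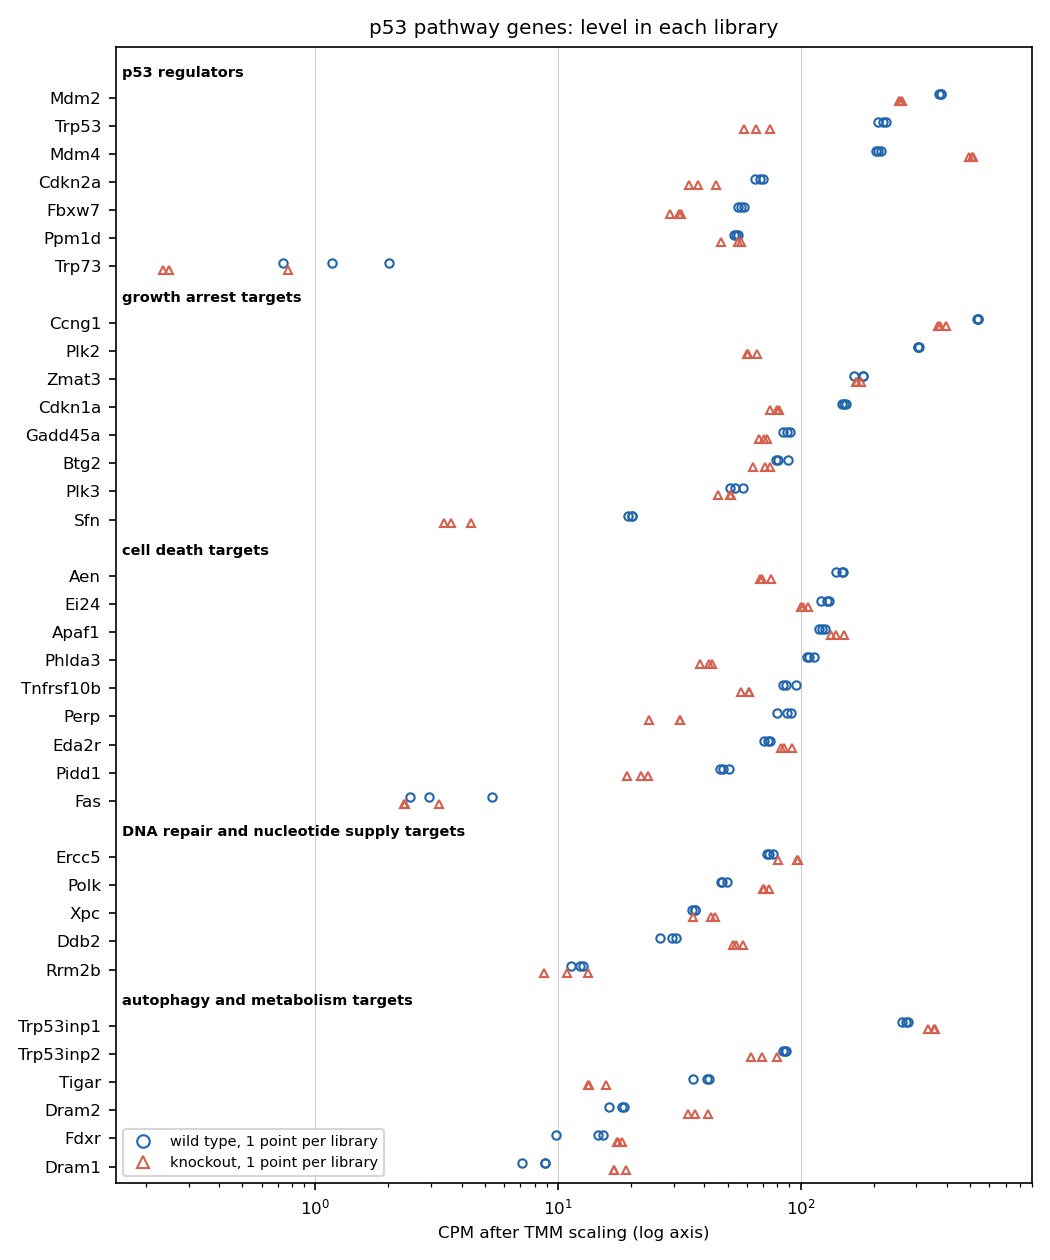
Level of each of the 35 p53 pathway genes in CPM (log axis) in each library, grouped by role and ordered by wild-type mean, with circles for the 3 wild-type and triangles for the 3 knockout libraries. Trp53, Plk2, Sfn, Perp and Phlda3 show knockout points well to the left of the wild-type points, Mdm4 to the right, and Zmat3, Ppm1d and Plk3 overlap.

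Gene counts per library were 7780368 to 9472916, and the biological coefficient of variation was 6.08%. Libraries of 1 group correlated at 0.991 to 0.993 (Pearson, log2 of CPM plus 1, across genes) and those of different groups at 0.930 to 0.932. Knockout replicate 1 stood apart from its group, with 1.04% of counts in genes over ribosomal RNA repeats against 0.0726 to 0.118% elsewhere. Leaving it out gave the same counts of p53 pathway genes, 10 higher and 18 lower. The mitochondrial share of counts was 1.67 to 1.73% among wild-type and 2.58 to 2.89% among knockout libraries. Markers of cell types moved as well. Summed over 10 genes of endoderm, the level was 4464 to 4505 CPM in wild type and 12496 to 12827 CPM in the knockout, with 8 higher and 1 lower. Most of the knockout sum was Col4a1, Lamb1 and Lama1, at means of 4920, 2900 and 2811 CPM, against 1902, 875 and 933 CPM in wild type. Of the other genes, Gata6, Gata4, Sox7, Cubn and Dab2 rose. Sox17 fell (log2 fold change -0.65, SE 0.12), and Foxa2 did not pass the test. Summed over 10 neural progenitor genes it was 471 to 498 and 158 to 168 CPM. Of these, 8 were tested and the median log2 fold change was 0.12. The 4 that rose were Pax6, Dach1, Zbtb16 and Msi1, and the 3 that fell were Nes, Cdh2 and Sox2, which held most of the summed level in wild type. Fabp7 had 0 counts in every library, Hes5 had 1 count in all, and Sox1 was at 1.98 and 1.84 CPM, so these 3 defining markers of neural progenitors were at or near 0 in both groups while Nes and Sox2 were not. Pluripotency genes summed to 1139 to 1178 and 910.0 to 949 CPM with 3 higher and 6 lower, and fibroblast and mesenchyme genes to 5266 to 5317 and 1616 to 1645 CPM with 2 higher and 7 lower. Whether cell makeup shifted, and what part that had in the p53 pathway values, was not tested. In bulk RNA, fewer cells of a type and less RNA per cell cannot be told apart.

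Among the regulators, the transcript of p53 itself fell to 0.304 of its wild-type level. Trp53 (ENSMUSG00000059552, chromosome 11, 69580359 to 69591873, GRCm38) stood at 225, 219 and 208 CPM in the wild-type libraries and at 58.5, 74.5 and 65.5 CPM in the knockout libraries. The groups did not overlap, and the lowest wild-type library was well above the highest knockout library. The fall was 3.28-fold (log2 fold change -1.72, SE 0.061, adjusted p = 1.2e-18, n = 3 per group). By absolute log2 fold change Trp53 lay at the 93.1 percentile of all tested genes. A processed copy, Trp53-ps on chromosome 17, had 0 counts in all libraries.

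The position of Trp53 on chromosome 11 was looked at after its value was seen. The gene lies 26.6 Mb from the nearest end of the HoxB cluster on the same chromosome. Wrap53, which encodes a telomerase assembly factor and starts head to head with Trp53 (69561758 to 69580255), had a log2 fold change of -1.08 (SE 0.12). Within 250 kb on either side, 30 other genes were tested, of which 7 rose and 14 fell, with a median log2 fold change of -0.22 and a range of -1.67 to 1.68. Over the 1265 tested genes of chromosome 11 the median was -0.071, and 40.3% fell, against 34.0% of all tested genes. The other members on chromosome 11 were Ccng1, which fell, Fdxr, which rose, and Ppm1d, which did not pass the test.

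The 2 partners that restrain p53 moved in opposite directions. Mdm2, the ligase that marks p53 for degradation, measured 379, 371 and 381 CPM in wild-type and 257, 254 and 262 CPM in knockout libraries. Each group was tight, and the groups did not overlap. The log2 fold change was -0.55 (SE 0.039, adjusted p = 2.35e-12). Mdm4, the relative without strong ligase activity, measured 214, 205 and 209 CPM in wild-type and 493, 512 and 509.8 CPM in knockout libraries. It rose 2.41-fold (log2 fold change 1.27, SE 0.039, adjusted p = 6.53e-20), the largest rise among the 34 tested members. The ratio of mean Mdm4 to mean Mdm2 CPM went from 0.556 to 1.96. Per kilobase of exon, which allows levels of different genes to be compared, the ratio was 0.191 in wild type and 0.674 in the knockout. The lengths are unions over all transcripts, 14798 bases for Mdm4 and 5083 for Mdm2, so the order of the 2 genes rests on them, and by CPM alone Mdm4 was the higher in the knockout. The X-linked copy Mdm4-ps had 0 counts in all libraries.

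Of the other regulators, 2 fell, 1 did not pass the test and 1 was too low to test. Cdkn2a encodes the cell cycle inhibitor p16INK4a and, in another reading frame, ARF, which binds MDM2 and frees p53, and gene counts cannot tell the transcripts apart. It measured 68.0, 70.2 and 64.7 CPM in wild-type and 44.7, 37.8 and 34.6 CPM in knockout libraries (log2 fold change -0.80, SE 0.081). Fbxw7, a p53 target whose product is the substrate arm of a ubiquitin ligase for MYC and cyclin E, fell from 56.8 ± 1.56 to 30.9 ± 1.80 CPM (mean ± SD, n = 3, log2 fold change -0.88). Ppm1d, a phosphatase that is induced by p53 and switches damage signalling off, was at 54.1 ± 0.988 and 53.1 ± 5.30 CPM (95% interval of the log2 fold change -0.18 to 0.13). Trp73, a p53 family gene, had 17, 11 and 6 counts in the 3 wild-type libraries against 6, 2 and 2 in the knockout, too few to pass the filter.

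**Figure D2:**
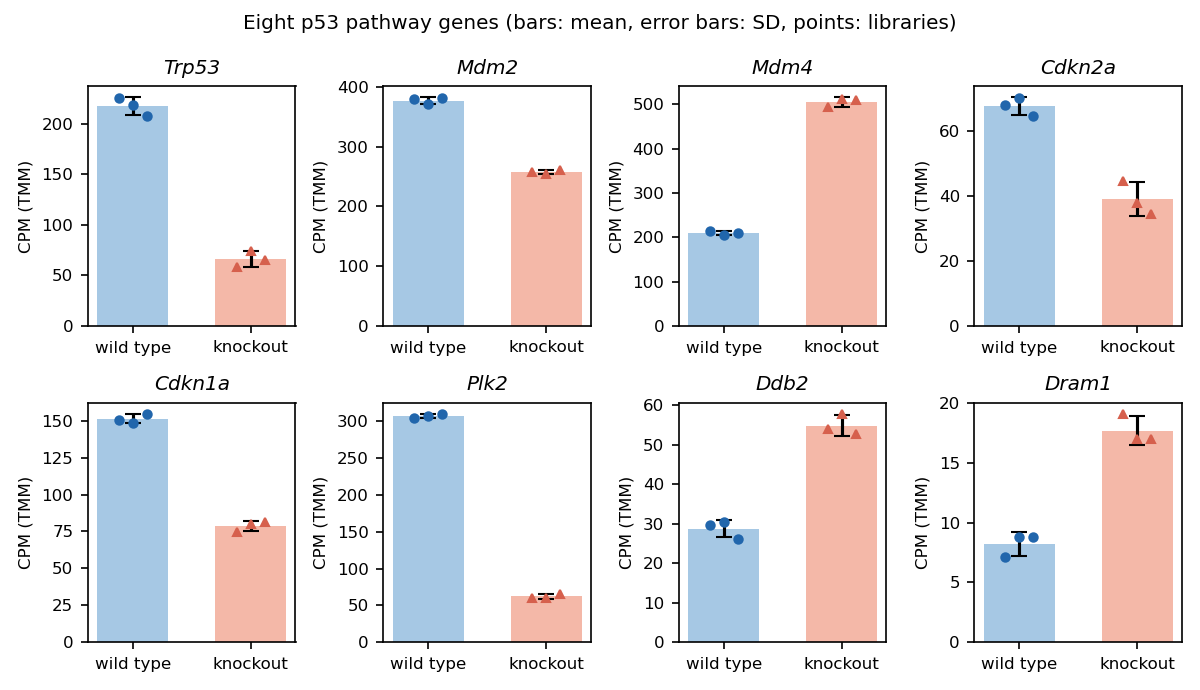
Mean CPM with SD (bars and error bars, axes from 0) and each library's value (points) for 8 p53 pathway genes in 3 wild-type and 3 knockout libraries. Trp53, Mdm2, Cdkn2a, Cdkn1a and Plk2 are lower in every knockout library than in any wild-type library, and Mdm4, Ddb2 and Dram1 are higher in every knockout library.

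Genes of growth arrest fell or did not pass the test. Of 8 tested, 6 fell by edgeR (75%, against 34.0% of all tested genes), with a median log2 fold change of -0.41. The number that rose was 0, against 34.5% of all tested genes. It was also 0 at an unadjusted p under 0.05, and 0 by DESeq2 and by limma-voom on the same libraries. Cdkn1a encodes p21, the inhibitor of cyclin-dependent kinases through which p53 halts cells in G1. It measured 151, 149 and 154 CPM in wild-type and 75.0, 80.1 and 81.5 CPM in knockout libraries. The wild-type values were close to each other, as were the knockout values, and the fall was 1.92-fold (log2 fold change -0.94, SE 0.048, adjusted p = 3.52e-15). AC167363.2, on the opposite strand, shares 7.68% of Cdkn1a's exon length, and the counts do not separate strands.

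The polo-like kinases Plk2 and Plk3, both stress-responsive relatives of the mitotic kinase Plk1, differed in their values. Plk2 measured 304, 306 and 309 CPM in wild-type and 60.5, 60.1 and 65.9 CPM in knockout libraries. All wild-type libraries were thus far above all knockout libraries, with a 4.92-fold fall (log2 fold change -2.30, SE 0.048, adjusted p = 1.37e-23). Plk3, at 54.2 ± 3.30 and 49.5 ± 3.41 CPM, did not pass the test (95% interval of the log2 fold change -0.28 to 0.025). The difference between the kinases was not tested, and the intervals of -2.40 to -2.20 and -0.28 to 0.025 lie far apart.

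Sfn, encoding 14-3-3 sigma, which holds cells in G2 and is typical of epithelia, showed the largest fall among the members. It had 171, 189 and 159 counts in the 3 wild-type libraries against 34, 29 and 29 in the knockout, or 20.2, 20.1 and 19.5 CPM against 4.38, 3.62 and 3.40 CPM. With so few knockout counts its error was larger than that of Plk2 (log2 fold change -2.39, SE 0.16). Ccng1, encoding cyclin G1, was the most abundant member per length in both groups, with 153 CPM per kb in wild type and 109 CPM per kb in the knockout. Its CPM went from 538, 538 and 532 to 369.7, 375 and 399, a modest fall with no overlap (log2 fold change -0.49, SE 0.037). Gadd45a, a stress sensor that binds p21 and PCNA, fell by 0.32 on the log2 scale (SE 0.056), with 19.1% of its exon length shared with E230016M11Rik on the other strand. Btg2, an antiproliferative gene that acts on mRNA turnover, fell by 0.25 (SE 0.064). Zmat3, encoding an RNA-binding protein that steers splicing, was at 176 ± 8.50 and 173 ± 4.66 CPM (95% interval of the log2 fold change -0.12 to 0.067).

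**Figure D3:**
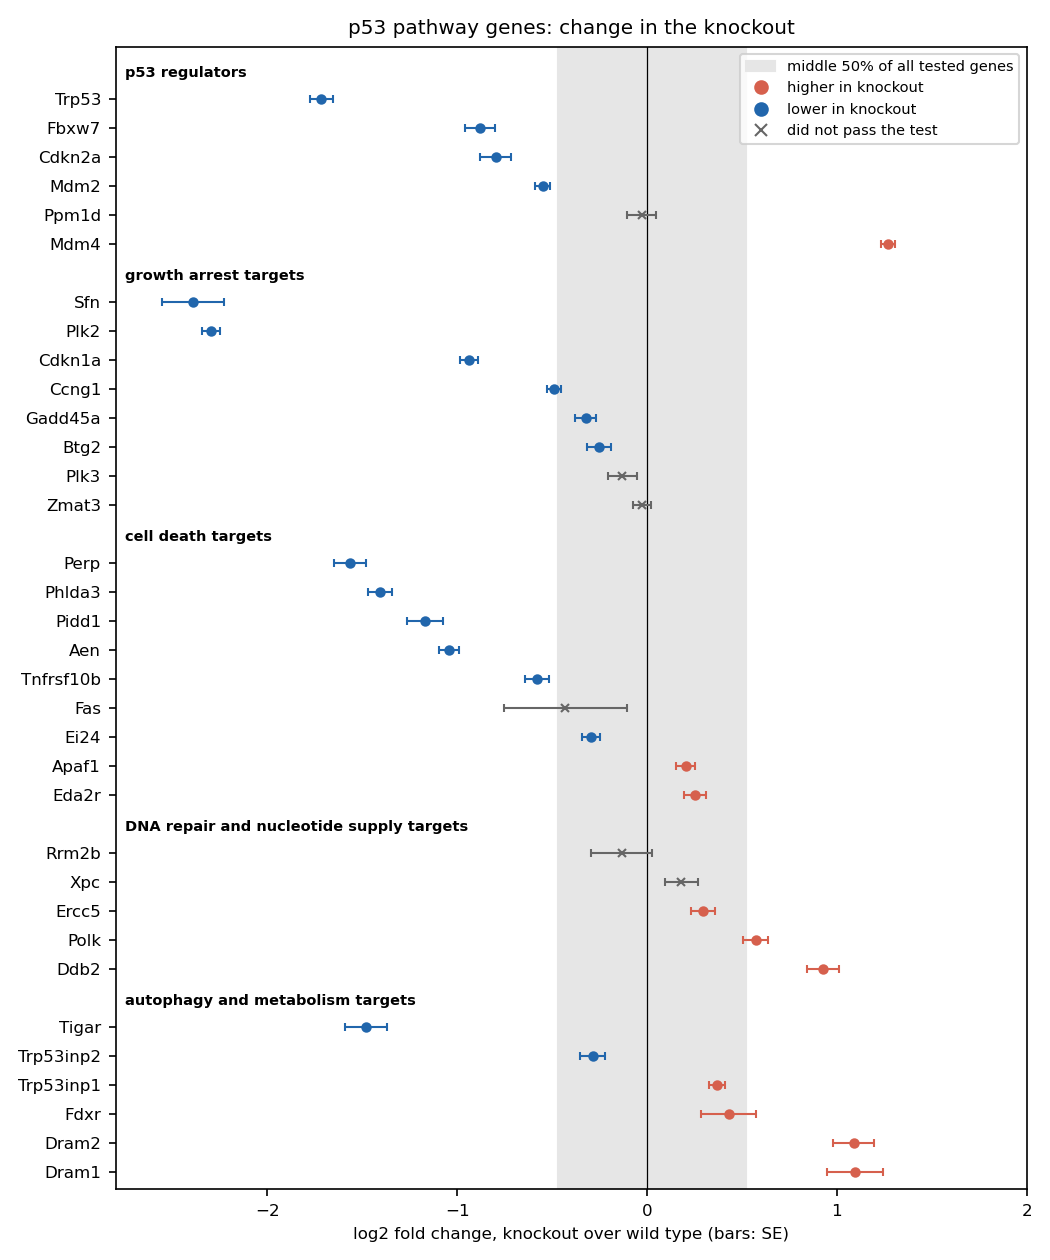
Log2 fold change, knockout over wild type, with its SE (bars) for the 34 tested p53 pathway genes, grouped by role, over the middle 50% of all tested genes (grey band, -0.47 to 0.52). Growth arrest genes lie at or left of 0, the DNA repair genes that passed the test lie right of 0, and Trp53, Plk2 and Sfn lie far left of the band.

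Cell death genes fell in 6 of 9 (66.7%, against 34.0% of all tested genes) and rose in 2 (22.2%, against 34.5%), with a median log2 fold change of -0.58. Perp, a membrane protein of desmosomes that also takes part in p53-driven death, measured 80.1, 88.2 and 91.0 CPM in wild-type and 23.7, 31.8 and 31.9 CPM in knockout libraries. Knockout replicate 1 was the lowest, and the groups did not overlap (log2 fold change -1.56, SE 0.087, adjusted p = 1.51e-14). Phlda3, which competes with AKT for membrane lipids and so restrains survival signalling, went from 113, 108 and 106 to 42.0, 38.4 and 43.0 CPM (log2 fold change -1.41, SE 0.061). Pidd1, the scaffold of the PIDDosome that activates caspase 2, fell from 48.4 ± 2.24 to 21.5 ± 2.15 CPM (log2 fold change -1.17). Aen, a nuclease that helps break up DNA in dying cells, measured 150.1, 149 and 139.8 CPM in wild-type and 69.3, 75.9 and 67.9 CPM in knockout libraries (log2 fold change -1.04, SE 0.052). These 4 had the largest falls among the cell death genes.

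The receptors among the cell death genes did not move together. Tnfrsf10b, the receptor of TRAIL, fell from 89.1 ± 5.76 to 59.7 ± 2.61 CPM (log2 fold change -0.58, SE 0.062). Fas was nearly silent, with 45, 23 and 24 counts in the 3 wild-type libraries against 18, 26 and 20 in the knockout. Its interval of -1.10 to 0.23 on the log2 scale leaves a fall, no change and a small rise possible. Eda2r, an X-linked receptor of ectodysplasin A2, rose from 72.8 ± 2.03 to 86.9 ± 5.08 CPM (log2 fold change 0.25, SE 0.057). Apaf1, the core of the apoptosome that activates caspase 9, rose by 0.20 (SE 0.050), from 123 ± 3.24 to 141 ± 8.64 CPM. Ei24, a protein of the endoplasmic reticulum linked to death and autophagy, fell by 0.30 (SE 0.048), with 6.66% of its exon length shared with Gm26787 on the other strand.

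DNA repair and nucleotide supply genes rose in 3 of 5 by edgeR (60%, against 34.5% of all tested genes). The share that changed in either direction, also 60%, was below the 68.6% of all tested genes. The number that fell was 0, against 34.0% of all tested genes. It was also 0 at an unadjusted p under 0.05, and 0 by DESeq2 and by limma-voom on the same libraries. Ddb2, which finds ultraviolet damage in chromatin, measured 29.6, 30.5 and 26.3 CPM in wild-type and 54.0, 57.8 and 52.7 CPM in knockout libraries. Every knockout library was far above every wild-type library (log2 fold change 0.93, SE 0.084, adjusted p = 2.77e-10). Acp2, on the opposite strand, shares 23.8% of Ddb2's exon length, and the counts do not separate strands. Polk, a polymerase that copies across damaged bases, rose from 48.2 ± 1.50 to 71.7 ± 2.37 CPM (log2 fold change 0.57, SE 0.065). Ercc5, the nuclease that cuts on the 3′ side of a lesion, rose by 0.29 (SE 0.063). Xpc, the damage sensor of global nucleotide excision repair, was at 0.18 (SE 0.088, adjusted p = 0.072). It passed with upper-quartile scaling (adjusted p = 0.0313) and without knockout replicate 3 (adjusted p = 0.0115), and not under the other 11 alternatives. Rrm2b, the ribonucleotide reductase subunit that p53 induces, was low, at 12.1 ± 0.673 and 11.0 ± 2.30 CPM, and did not pass the test (95% interval of the log2 fold change -0.46 to 0.19).

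Genes of autophagy and metabolism all passed the test, against 68.6% of all tested genes. Of these, 4 were higher (66.7%, against 34.5%) and 2 lower (33.3%, against 34.0%). Dram1 and Dram2, related lysosomal membrane proteins that promote autophagy, both rose. Dram1 measured 7.10, 8.83 and 8.83 CPM in wild-type and 19.1, 17.0 and 17.0 CPM in knockout libraries (log2 fold change 1.09, SE 0.15). Dram2 measured 18.3, 16.2 and 18.8 CPM in wild-type and 34.4, 36.8 and 41.7 CPM in knockout libraries (log2 fold change 1.09, SE 0.11). Both were thus a little over 2-fold higher, 2.14-fold for Dram1 and 2.13-fold for Dram2, with no overlap between groups.

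Trp53inp1 and Trp53inp2, related nuclear proteins that also act in autophagosome formation, went in opposite directions. Trp53inp1, the better known p53 target, rose from 271 ± 7.49 to 349.8 ± 11.5 CPM (log2 fold change 0.37, SE 0.041). Trp53inp2 fell from 86.0 ± 1.32 to 70.6 ± 8.82 CPM (log2 fold change -0.29, SE 0.067), with knockout values of 69.6, 79.9 and 62.3 CPM. Tigar, an enzyme that lowers fructose 2,6-bisphosphate and turns glucose away from glycolysis, measured 42.1, 40.9 and 36.1 CPM in wild-type and 13.4, 13.4 and 15.8 CPM in knockout libraries. It fell 2.79-fold (log2 fold change -1.48, SE 0.11, adjusted p = 5.85e-12), with 3.34% of its exon length shared with Platr31 on the other strand. Fdxr, the mitochondrial ferredoxin reductase, measured 9.82, 14.6 and 15.3 CPM in wild-type and 17.5, 18.3 and 17.7 CPM in knockout libraries (log2 fold change 0.43, SE 0.15, adjusted p = 0.0114). That call rests on the low wild-type replicate 1: without it the log2 fold change was 0.25 (adjusted p = 0.121).

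The order of levels per exon length also changed among the members. In wild type the highest after Ccng1 were Mdm2 at 74.2, Phlda3 at 70.0, Plk2 at 68.2, Cdkn2a at 57.7 and Trp53 at 53.7 CPM per kb. In the knockout the highest after Ccng1 were Trp53inp1 at 54.0, Mdm2 at 50.7, Gadd45a at 39.8 and Mdm4 at 34.1 CPM per kb, with Trp53 at 16.4 and Plk2 at 13.9. Phlda3 and Plk2 in wild type were close to each other, and their order rests on the annotated exon lengths. The lengths are unions over all transcripts, so a gene with long alternative exons, such as Mdm4 with 14798 bases, appears lower than its main transcript would.

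Other p53 target genes, a list of 39 outside the members and outside the BCL2 family, fell in 21 and rose in 11, with 7 that did not pass and a median log2 fold change of -0.40. The median was -0.26 without knockout replicate 2 and -0.27 without wild-type replicate 2, with 20 and 18 lower and 9 higher in each. Thbs1, encoding the matrix protein thrombospondin 1, fell by 3.47 (SE 0.059), Epha2, an ephrin receptor, by 1.46 (SE 0.046) and Sesn2, a stress protein that restrains mTORC1, by 0.99 (SE 0.047). These are targets of other pathways too, Thbs1 of TGF-beta among them. At the other end Cd82, encoding a tetraspanin and picked for its value, was highest at 1.84 (SE 0.25). The share that fell, 53.8%, was close to that of the members, against 34.0% of all tested genes. The share that rose was 28.2%, against 34.5% of all tested genes.

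Genes that signal DNA damage to p53 or modify it moved both ways, with 11 higher and 11 lower of 30 and a median log2 fold change of -0.055. Each share, 36.7%, was near that of all tested genes, 34.5% higher and 34.0% lower. Atr, the kinase that senses stalled replication, rose by 0.94 (SE 0.054), while Trim28, a corepressor that works with MDM2, fell by 0.70 (SE 0.034). Trim24, a ligase that targets p53, rose by 0.82 (SE 0.043), and Rpl5, a ribosomal protein that can bind MDM2, rose by 0.66 (SE 0.029). Sirt1, a deacetylase of p53, picked for its value, was the lowest of the list at -1.36 (SE 0.085). Cell cycle genes that p53 lowers through p21 and the DREAM complex, a repressor of cell cycle promoters, rose in 7 and fell in 6 of 16 (median log2 fold change 0.064), or 43.8% and 37.5%. Mcm5, a helicase subunit, and Pcna, the polymerase clamp, fell by 1.04 (SE 0.044) and 0.94 (SE 0.047). Kif23, a kinesin of cytokinesis, and Cenpf, a kinetochore protein, rose by 0.67 (SE 0.046) and 0.58 (SE 0.051). Genes of mitosis went both ways, and Cdc20, an activator of the anaphase-promoting complex named after its value was seen, fell by 0.49 (SE 0.047).

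**Figure D4:**
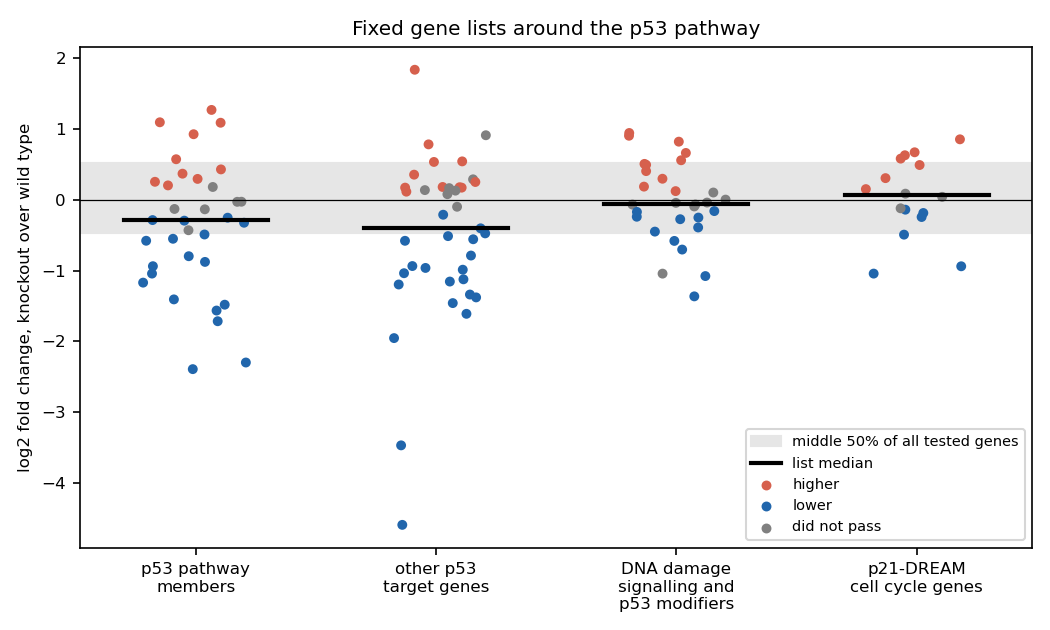
Log2 fold change, knockout over wild type, of each tested gene (points, coloured by call) in the p53 pathway list and 3 other lists, with each list's median (black line) and the middle 50% of all tested genes (grey band). The medians are -0.29 for the p53 pathway genes, -0.40 for other p53 targets, -0.055 for damage signalling and p53 modifiers and 0.064 for the p21-DREAM genes.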

How the data were processed

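RNA was measured by sequencing in 3 wild-type and 3 knockout libraries. The authors deposited 1 table of raw, whole-number read counts per Ensembl gene for each library. Per the submitters' processing notes, HISAT2 2.1.0, HTSeq 0.9.1, DESeq2 1.18.1 and the build mm10 were used, and the annotation release and strandedness are not stated in the sources used here. The 5 tally rows at the end of each table stayed out of library sizes and tests, and reads under no feature were 42.3 to 43.5% of a library. Symbols, positions and exon lengths came from GENCODE M21 (GRCm38), and 52489 of 52636 identifiers matched. Among 55 single-exon genes inside an exon of the other strand, the median read density was 0.708 of the host's, so the counts were treated as not separating strands.

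Counts were tested with edgeR 4.0.16 (R 4.3.3), knockout against wild type with no covariate, TMM scaling, filterByExpr with a minimum count of 10 and Benjamini-Hochberg adjustment over the 15816 genes kept. The SE was derived from the log2 fold change and its F statistic. After the fit, the test was also run on counts simulated from the mean levels and dispersions of these data. Far fewer genes were changed there than were called here, so scaling under so broad a change was not checked. The members and the lists were chosen with earlier results of these data known. The rule for named genes takes every member and, from each other list, up to 4 genes with the smallest adjusted p. Some genes that the rule takes from the marker lists are not described, and 1 from the list of other p53 targets is not reported here. Setd8, a listed gene, was matched by its RefSeq synonym as Kmt5a. No replicate pair agreed within sampling noise (chi-square per degree of freedom 1.88 to 6.60). Alternatives were DESeq2 1.42.0, limma-voom (limma 3.58.1), RLE and upper-quartile scaling, 2 other filters, the replicate number as a block, and each library left out in turn.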

Additional observations from a re-analysis of the deposited data

How the results depend on the processing

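The counts of p53 pathway genes varied little over the 13 alternatives. The number higher was 9 to 11 and the number lower 18 when each library was left out in turn, and 10 to 11 and 18 to 19 under the other 7 settings. The added fall was Trp73, which was tested only with no filter beyond 1 count. All 28 calls were kept with their direction under each alternative except Fdxr without wild-type replicate 1, and Xpc was called under 2 settings. Over all genes the counts ranged from 4918 to 5769 higher and from 5005 to 5711 lower. With the replicate block the p53 pathway counts were 10 higher and 18 lower. The replicate numbers share only a number between the groups, since deviations of same-numbered libraries correlated at 0.0028 to 0.053. The median of all tested genes moved from 0.0091 to 0.046 with upper-quartile scaling. Depth limits Trp73 and Fas, which had the lowest wild-type counts among the members. Groups of 3 libraries were not tested for outlying values of single genes, and knockout replicate 1 is described above. The medians of 2 lists near 0 moved: damage signalling, at -0.055, was at -0.085 without knockout replicate 2 and -0.018 with upper-quartile scaling, and the cell cycle genes, at 0.064, were at 0.017 without wild-type replicate 3 and 0.10 with upper-quartile scaling.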
